A study of Mus musculus with 4 samples.

Results

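The 10 genes described here encode ion channels that open when a membrane is stretched or a cell is loaded, and the channels that join neighbouring cells or release ATP from them. They are Piezo1, Piezo2, Trpv4, Trpc1, Pkd1, Pkd2, Gja1, Gjc1, Panx1 and Kcnk2, all found by gene symbol among the 25239 genes of the count table. They were selected on named family membership and on the scaled counts of the cKO against the control libraries, so their difference between genotypes is given as a description, with no test. Messenger RNA was sequenced in 4 libraries of primary mouse chondrocytes, the resident cells of cartilage. The 2 control libraries came from Tiki2 fl/fl mice. The 2 libraries called cKO here came from Tiki2 fl/fl mice that also carry Col2a1-Cre/ERT (written Col2a-CreERT2 in the genotype field), a Cre driven from a collagen II promoter and active only in the presence of tamoxifen or its active form. Every culture received 4-hydroxytamoxifen, and because the Cre was present in cKO cultures alone, what the Cre does by itself and what Tiki2 loss does cannot be told apart. The study asks what Tiki2, a membrane protease that inactivates Wnt proteins (gene symbol Trabd2b), does in these cells. The labels give no ages and do not say whether libraries of a group came from separate animals or cultures. Standard errors and p-values therefore rest on the spread between these libraries, which may be technical between the cKO libraries. The fit also borrows from the spread of all genes, so a standard error is not the gene's own spread alone. By the Xist and Ddx3y counts given below, the 2 controls differ in sex, so their spread includes a difference between animals.

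Cartilage is loaded with every step, and chondrocytes read that load through their membranes. PIEZO1 and PIEZO2 are large channels that let calcium in when the membrane is stretched or indented, and TRPV4 is a cation channel that responds to osmotic and moderate mechanical load and is known for supporting cartilage matrix production. The polycystins encoded by Pkd1 and Pkd2 form a receptor and channel complex of the primary cilium. Connexins assemble into gap junctions between cells and into hemichannels open to the outside, and pannexins form channels that release ATP, so a signal started in a cell can reach its neighbours.

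For orientation, the sequences just before the transcription start of Trpv4, the member with the largest difference between genotypes, and of Piezo1, a related load sensor with almost none, are shown 5′ to 3′ on the gene's strand (RefSeq, GRCm38.p6). Each covers 250 bases, Trpv4 at chr5:114658422-114658671 and Piezo1 at chr8:122551330-122551579, both on the minus strand. Capitals mark matches on either strand to CTTTGA, a core bound by TCF/LEF factors, and to the GC box GGGCGG.
Trpv4: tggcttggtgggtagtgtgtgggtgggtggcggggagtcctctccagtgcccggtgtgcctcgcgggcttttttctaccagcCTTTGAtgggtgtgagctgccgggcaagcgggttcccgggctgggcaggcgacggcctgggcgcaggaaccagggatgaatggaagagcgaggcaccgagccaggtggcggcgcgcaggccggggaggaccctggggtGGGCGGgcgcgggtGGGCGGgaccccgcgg
Piezo1: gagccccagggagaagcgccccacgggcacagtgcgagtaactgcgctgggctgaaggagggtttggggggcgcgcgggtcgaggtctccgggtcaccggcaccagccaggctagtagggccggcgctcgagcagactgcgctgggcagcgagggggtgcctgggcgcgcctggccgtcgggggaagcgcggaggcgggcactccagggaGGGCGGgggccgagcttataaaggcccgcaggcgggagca
The Trpv4 window held 1 match to CTTTGA and 2 to GGGCGG, and the Piezo1 window 0 and 1. Among all 32851 promoter windows of this length in the table, 13.8% held CTTTGA and 32.7% held GGGCGG. The GC content was 72% before Trpv4 and 74% before Piezo1, against a median of 52.4% over all windows. Neither window held CTTTGT (16.5% of all windows), ACAAT, a core shared by SOX factors (27.7%), CATTCC, the core bound by TEAD factors (12.6%), or TGANTCA, the AP-1 motif (6.75%). CTTTGA and CTTTGT differ only in the last letter, and CTTTGT read on the other strand shares its first letters with ACAAT. A match describes letters only. Windows were examined for 8 of the 10 members, and none was examined for Piezo2 or Gjc1. CTTTGA was not particular to Trpv4. The Trpc1 window held 1 match to CTTTGA and 3 to GGGCGG, and a Kcnk2 window held 1 to CTTTGA. No window of Piezo1, Pkd1, Pkd2, Panx1 or Gja1 held CTTTGA.

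Total counts lay between 66750140 and 78873054 per library. Values below are CPM, read counts scaled to the same library total, after TMM scaling, which corrects for library composition. Trabd2b, the targeted gene, stood at 436 and 415 CPM in the controls and at 292 and 363 CPM in cKO, and since reads were counted over the gene as a unit, deletion of the floxed segment was not resolved. Control replicate 1 stood apart by sex, with 112185 counts of Xist and 0 of the Y-linked Ddx3y, against 36 to 171 Xist counts and 11073 to 12085 Ddx3y counts in the other libraries. No member is on a sex chromosome. The summed CPM of 15 chondrocyte markers, mostly Col2a1 and Col11a1, was 29129 and 34014 in controls and 16595 and 12253 in cKO. None of these 15 was at 0 in all libraries, and all 15 had log2 fold changes below 0. The summed CPM of 10 fibroblast markers was 10355 to 10433 in controls and 12094 to 12626 in cKO, and that of 8 adipocyte markers was 202 to 207 and 293 to 466, with Lep at 0. Of the 10 fibroblast markers, 8 had log2 fold changes above 0 and 2 below, among them Dcn (1760 and 1719 CPM in controls, 1467 and 1472 CPM in cKO). All 7 adipocyte markers tested were above 0. Skeletal muscle markers summed to 5.84 and 44.1 CPM in controls against 84.9 and 16.7 CPM in cKO, with Pax7 at 0. In bulk libraries, fewer cells of a type and less RNA per cell cannot be told apart.

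Trpv4 was lower and Piezo2 higher in both cKO libraries than in either control, while the other 8 members differed little or overlapped. The fitted log2 fold changes of cKO over control ran from -1.12 ± 0.21 (SE) for Trpv4 to 0.87 ± 0.12 for Piezo2. Of the 10, 6 lay within 0.2 of 0 on the log2 scale, as did 58.6% of the 15522 genes tested. The median over the members was 0.06, against 0.00 over all genes tested (0.13 and 0.07 with library sizes alone), and 8 of 10 were above 0, against 50.4% of all genes. Groups did not overlap for 6 members (49.8% of all genes), 5 with cKO higher (24.9% of all genes) and 1 with cKO lower (24.9% of all genes). Piezo2 was the 1 of 10 past an adjusted p of 0.05 in the edgeR fit over all genes, in which 1.30% of genes passed, 0.393% higher and 0.908% lower in cKO. With library sizes alone 116 genes were higher and 123 lower, against 61 and 141 with TMM scaling. Nothing is read from these counts, since the same contrast chose the members.

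**Figure D1:**
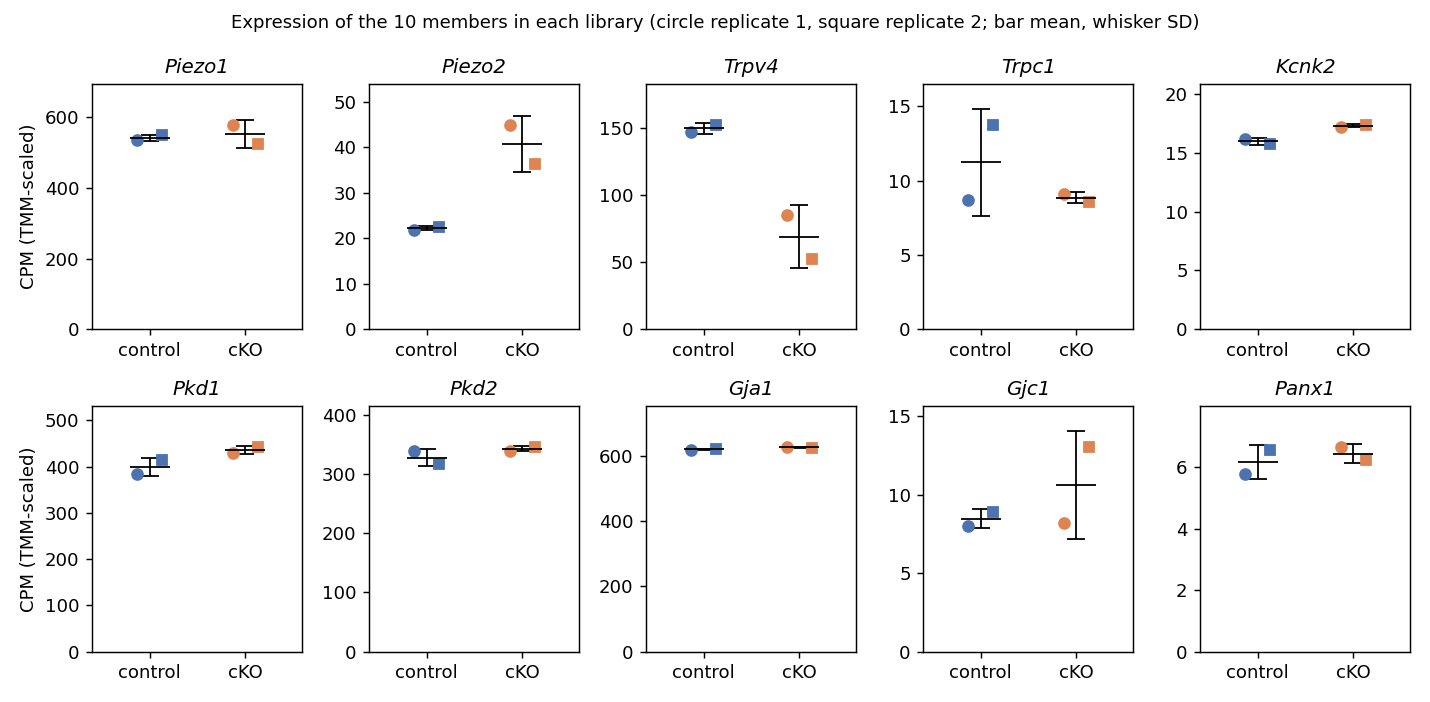
Expression of each member in CPM (vertical axes, each starting at 0) in the 2 control and 2 cKO libraries; points are libraries, bars are group means and whiskers are SD. Piezo2 lies higher and Trpv4 lower in both cKO libraries, while Gja1 spans only 619 to 627 CPM over all 4.

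**Figure D2:**
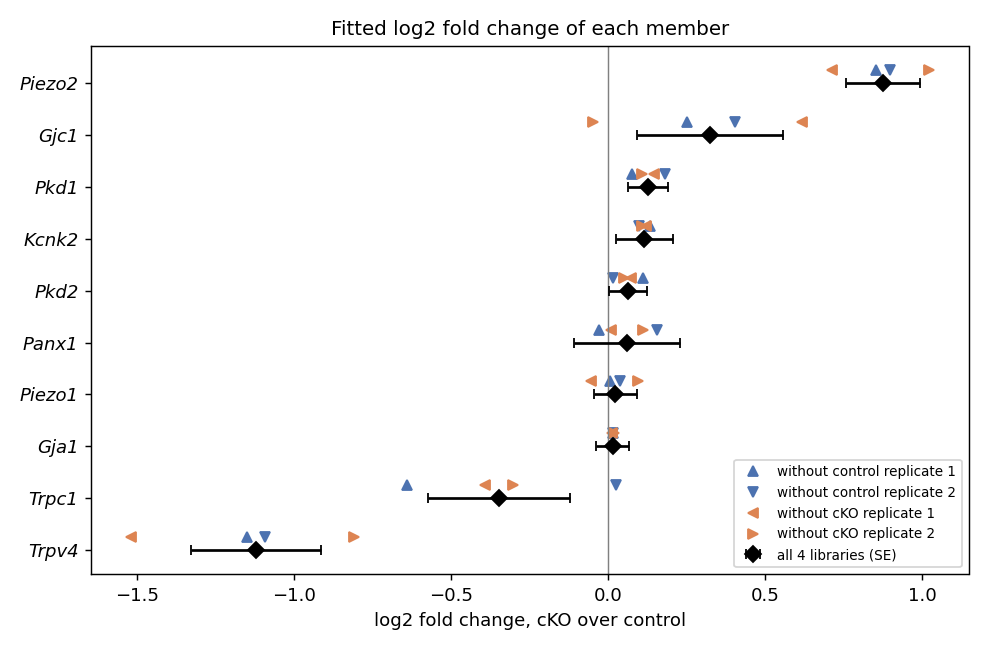
Fitted log2 fold change of cKO over control for each member (black, SE from the fit to the 4 libraries) and the same after leaving out each library (coloured). Trpv4 and Piezo2 stay on their side of 0 in every fit, whereas Trpc1, Gjc1, Piezo1 and Panx1 cross it in 1 fit each.

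Piezo1 (ENSMUSG00000014444.17, mm10 chromosome 8, 122481698 to 122551329, minus strand) was the main Piezo gene of these cells. Counts, given here and below for replicate 1 and then replicate 2, were 35067 and 41339 for controls and 44891 and 42487 for cKO, that is 536 and 548 CPM in controls against 579 and 523 CPM in cKO. The cKO libraries lay on either side of the controls, and the log2 fold change was 0.02 ± 0.07 (SE). Leaving out cKO replicate 1 turned it to -0.05, and it was 0.0068 without control replicate 1 and 0.09 with library sizes alone. Exons of Ctu2, a gene on the opposite strand, cover 24.6% of the Piezo1 exon bases. Ctu2 itself stood at 13.6 to 16.9 CPM, far below Piezo1, and without a strand setting the reads of the shared stretch cannot be assigned.

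Piezo2 (ENSMUSG00000041482.17, chromosome 18, 63010213 to 63387183, minus strand), best known as the touch and position sensor of sensory neurons and Merkel cells, was the member with the largest difference upward. Counts were 1430 and 1699 in controls and 3489 and 2960 in cKO, or 21.9 and 22.5 CPM against 45.0 and 36.4 CPM. The controls lay within 1.03 times of each other and both cKO libraries lay above them, with a ratio of means of 1.83. The log2 fold change ranged from 0.71 without cKO replicate 1 to 1.02 without cKO replicate 2, and was 0.85 without control replicate 1, the library with Xist, and 0.90 without control replicate 2. Since the same contrast chose Piezo2, its passing of the threshold in the fit over all genes is not read as a test.

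The Piezo2 share of all Piezo counts was 3.92% (95% exact interval 3.72% to 4.12%) and 3.95% (3.77% to 4.14%) in controls. In cKO it was 7.21% (6.98% to 7.45%) and 6.51% (6.29% to 6.74%). Per kilobase of exon, Piezo1 exceeded Piezo2 by 42.4 and 42.0 times in controls and by 22.2 and 24.8 times in cKO. Piezo1 thus stayed the dominant form in each library, with Piezo2 a larger minority in cKO. Intervals cover counting error only.

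Defining markers of the cell types best known for Piezo2 were at or near 0. Of 8 Merkel cell and keratinocyte markers, Krt14, Krt8 and Atoh1 were at 0 in all libraries, Krt20 had 0 to 10 counts, and the sum of all 8, mostly Trp63, was 4.08 and 4.10 CPM in controls against 5.21 and 6.20 CPM in cKO. Of 11 neuron and Schwann cell markers, Scn10a and Sox10 were at 0 in all libraries, and the sum, mostly S100b and Ncam1, was 271 and 320 CPM in controls against 196 and 168 CPM in cKO. Fibroblast and adipocyte marker sums, given above, were higher in cKO as Piezo2 was. Within cKO the order differed, with Piezo2 higher in replicate 1 and both sums higher in replicate 2. The part of these markers in the Piezo2 value was not tested.

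Trpv4 (ENSMUSG00000014158.12, chromosome 5, 114622152 to 114658421, minus strand) had 9612 and 11512 counts in controls and 6630 and 4259 in cKO. Its level was 147 and 153 CPM in controls against 85.5 and 52.4 CPM in cKO. The 2 controls were nearly equal, both cKO libraries lay below them, and cKO replicate 2 was the lower by 1.63 times. Group means were 150 ± 4.03 and 68.9 ± 23.4 CPM (SD, n = 2), a ratio of 2.17. The size of the difference depended on which cKO library was kept. The log2 fold change was -1.52 without cKO replicate 1, -0.81 without cKO replicate 2, -1.15 without control replicate 1 and -1.09 without control replicate 2.

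The summed chondrocyte markers were lower in the same libraries in the same order, at 16595 CPM in cKO replicate 1 and 12253 CPM in cKO replicate 2, and Sox9, the transcription factor of chondrocyte identity, was at 228 and 232 CPM in controls against 197 and 157 CPM in cKO. The part of these markers in the Trpv4 value was not tested. Trpv4 made up nearly all counts of its subfamily of 6 Trpv genes, 98.5% (95% exact interval 98.3% to 98.8%) and 98.2% (98.0% to 98.4%) in controls and 97.0% (96.6% to 97.4%) and 94.9% (94.2% to 95.5%) in cKO. Set against Piezo1 per kilobase of exon, Trpv4 stood at 0.668 and 0.679 times the Piezo1 level in controls and at 0.360 and 0.244 times in cKO.

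The genes whose pattern over the 4 libraries lay nearest to Trpv4, among 12153 others whose mean log2 CPM was 1 or more, were Cnmd, Extl1 and Trib3. Likeness was the root mean square difference of centred log2 CPM, 0.023 for Cnmd and for Extl1 and 0.032 for Trib3. Cnmd, which encodes the cartilage glycoprotein chondromodulin, had 754 and 766 CPM in controls against 441 and 275 CPM in cKO. Extl1, a glycosyltransferase of the exostosin family, had 58.1 and 59.0 CPM in controls against 32.4 and 20.5 CPM in cKO. Trib3, a stress-induced pseudokinase, had 119 and 126 CPM in controls against 73.1 and 44.6 CPM in cKO. Each of the 3 repeats the Trpv4 pattern of near-equal controls, a lower cKO replicate 1 and a still lower cKO replicate 2. With 4 libraries, this likeness is a description of these libraries.

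Trpc1 (ENSMUSG00000032839.13, chromosome 9, 95705082 to 95750375, minus strand), a cation channel subunit linked to store-operated and stretch-sensitive calcium entry, had 568 and 1039 counts in controls and 706 and 697 in cKO. In CPM these were 8.68 and 13.8 in controls and 9.10 and 8.58 in cKO. Control replicate 2 alone was high, at 1.59 times control replicate 1, while the other 3 libraries lay together. The log2 fold change of -0.35 ± 0.23 (SE) therefore rested on that library, becoming 0.03 without control replicate 2 and -0.64 without control replicate 1. Trpc1 held 93.0% to 95.1% of the counts of the 7 Trpc genes in every library.

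Kcnk2 (ENSMUSG00000037624.15, chromosome 1, 189207930 to 189402273, minus strand) encodes TREK-1, a potassium leak channel opened by stretch and lipids that holds the membrane potential down. Its counts were 1058 and 1190 in controls and 1335 and 1415 in cKO. In CPM the controls stood at 16.2 and 15.8 and the cKO libraries at 17.2 and 17.4. The groups did not overlap, but the ratio of means was only 1.08, and counting error alone is about 3.07% in the library with the fewest counts. The log2 fold change was 0.12 ± 0.09 (SE) with all libraries and 0.10 to 0.13 with a library left out, the highest without control replicate 1. With library sizes alone it was 0.18. Exons of an antisense transcript cover 12.2% of its exon bases. Kcnk2 took 34.7% and 30.6% of the counts of all K2P potassium channel genes in controls and 36.0% and 39.6% in cKO.

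Both polycystin genes were abundant and varied little. Pkd1 (ENSMUSG00000032855.6, chromosome 17, 24549834 to 24596508, plus strand), the receptor-like partner, had 25194 and 31192 counts in controls and 33351 and 35978 in cKO, or 385 and 414 CPM against 430 and 443 CPM. Pkd2 (ENSMUSG00000034462.9, chromosome 5, 104459450 to 104505819, plus strand), the channel subunit, had 22123 and 23909 counts in controls and 26308 and 28078 in cKO, or 338 and 317 CPM against 339 and 345 CPM. Neither gene's groups overlapped, yet the gap for Pkd2, 338 against 339 CPM, was smaller than the spread between its controls. The log2 fold changes were 0.13 ± 0.06 (SE) for Pkd1 and 0.06 ± 0.06 for Pkd2. Pkd1 ranged from 0.08 without control replicate 1 to 0.19 with library sizes alone, and Pkd2 from 0.02 without control replicate 2 to 0.13 with library sizes alone. Without control replicate 1 Pkd2 was at 0.11. Per kilobase of merged exons, Pkd2 exceeded Pkd1 by 1.5 and 1.31 times in controls and by 1.35 and 1.34 times in cKO. Per kilobase of the longest transcript the means were 64.2 CPM for Pkd2 and 29.5 CPM for Pkd1. Exons of Tsc2 on the opposite strand cover 3.98% of the Pkd1 exon bases.

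Gja1 (ENSMUSG00000050953.10, chromosome 10, 56377330 to 56402513, plus strand) encodes Cx43, the main gap junction protein of skeletal cells, and was the steadiest member. It had 40493 and 46755 counts in controls and 48637 and 50822 in cKO, which came to 619 and 620 CPM in controls against 627 and 625 CPM in cKO after scaling. The cKO libraries lay above the controls by a ratio of means of only 1.01, and the log2 fold change was 0.02 ± 0.05 (SE). Without control replicate 1 it was 0.014. With library sizes alone it was 0.08, against a median of 0.07 over all genes under that scaling. Gja1 held 96.5% to 97.2% of all connexin counts in every library.

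Gjc1 (ENSMUSG00000034520.14, chromosome 11, 102799579 to 102819700, minus strand) encodes Cx45, a connexin of lower conductance that can mix with Cx43 in a junction. It had 526 and 674 counts in controls and 637 and 1061 in cKO, or 8.04 and 8.94 CPM against 8.21 and 13.1 CPM. Only cKO replicate 2 was high, and cKO replicate 1 lay between the controls. The log2 fold change of 0.32 ± 0.23 (SE) became -0.05 without cKO replicate 2 and 0.62 without cKO replicate 1, and was 0.25 without control replicate 1. Its share of connexin counts was 1.26% (95% exact interval 1.15% to 1.37%) and 1.39% (1.29% to 1.5%) in controls, and 1.27% (1.18% to 1.37%) and 2.02% (1.90% to 2.14%) in cKO.

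Panx1 (ENSMUSG00000031934.14, chromosome 9, 15002128 to 15045478, minus strand), the widely expressed ATP release channel, was the member with the fewest counts. Counts were 378 and 496 in controls and 517 and 506 in cKO, and levels were 5.78 and 6.58 CPM in controls against 6.67 and 6.23 CPM in cKO. The groups overlapped, and the log2 fold change of 0.06 ± 0.17 (SE) was -0.03 without control replicate 1, 0.16 without control replicate 2 and 0.13 with library sizes alone. Panx1 nevertheless made up a larger part of pannexin counts in cKO, 39.1% (95% exact interval 36.5% to 41.8%) and 43.3% (40.5% to 46.2%), than in controls, 16.3% (14.8% to 17.9%) and 20.6% (19.0% to 22.3%). The other side of that share was Panx3, the pannexin of maturing chondrocytes, at 80.6% and 77.7% of pannexin counts in controls and at 57.7% and 53.9% in cKO.

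Levels of different genes were compared per kilobase of merged exons. In that order Gja1 came first, with 60.7 ± 0.382 CPM per kilobase (SD over the 4 libraries), followed by Piezo1 with 55.0 ± 2.41, Pkd2 with 32.9 ± 1.22, Trpv4 with 26.8 ± 11.9 and Pkd1 with 24.0 ± 1.42. A gap of 7.13 times separated Pkd1 from Kcnk2, at 3.37 ± 0.160 CPM per kilobase. Gjc1 (1.91 ± 0.472), Piezo2 (1.83 ± 0.655), Trpc1 (1.25 ± 0.312) and Panx1 (1.05 ± 0.0668) were lowest. Neighbours whose libraries overlapped were Pkd2 and Trpv4, Trpv4 and Pkd1, Gjc1 and Piezo2, Piezo2 and Trpc1, and Trpc1 and Panx1, so their order is not settled. Per kilobase of merged exons, Trpv4 took a different place in each genotype. It lay above Pkd2 and Pkd1 in both controls, at 36.1 and 37.5 CPM per kilobase, and below both in cKO, at 21 and 12.9. Per kilobase of the longest transcript, this change of place held against Pkd1 only, and Trpv4 lay below Pkd2 in every library. Piezo2 also moved in the order. In controls, at 1.27 and 1.31 CPM per kilobase, it lay below Gjc1 (1.61 and 1.79) in both libraries and above Trpc1 (1.08 and 1.72) only in replicate 1. In cKO, at 2.62 and 2.12, it lay above Trpc1 (1.13 and 1.07) in both libraries and above Gjc1 (1.64 and 2.61) only in replicate 1. Dividing by the longest transcript in place of merged exons left the order of the means over the 4 libraries the same except that Piezo2 (2.93) passed Gjc1 (2.80). It raised Gja1 to 160.2, Pkd2 to 64.2 and Trpc1 to 2.2 CPM per kilobase. The distance of Gja1 from Piezo1 (66.5) thus depends on the length used. So does that of Piezo1 from Pkd2. Per kilobase of the longest transcript the libraries of Piezo1 and Pkd2 overlapped, so their order is not settled either.

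**Figure D3:**
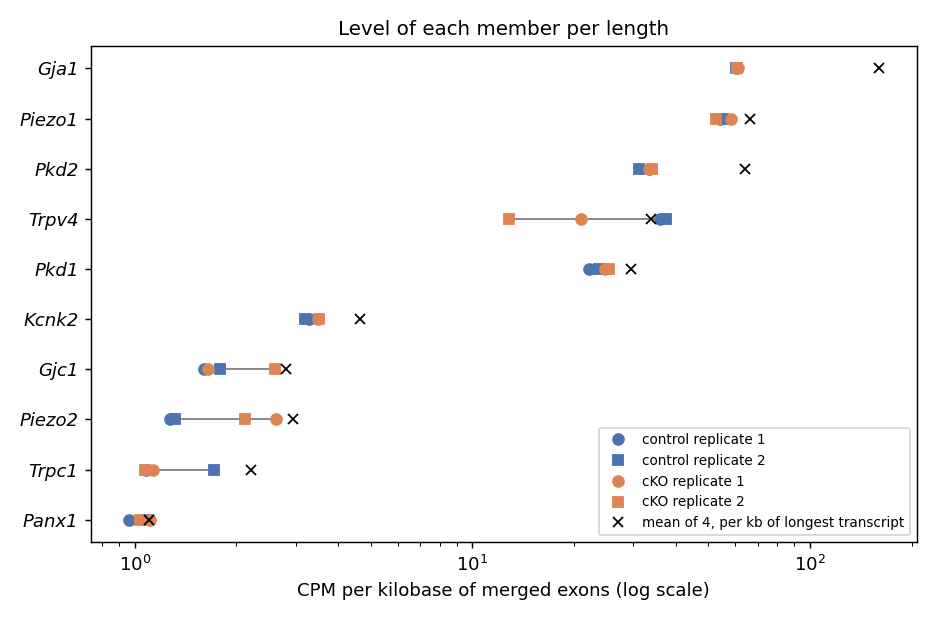
Level of each member per kilobase of merged exons (horizontal log axis, CPM per kilobase) in each library, with the mean per kilobase of the longest transcript as crosses. The 5 most abundant members lie above 12 and the others below 4 on the merged-exon scale, and Trpv4 spreads from 12.9 to 37.5.

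Relatives and partners of the members were taken from 10 lists of families and pathways and tested in the edgeR quasi-likelihood fit with adjustment over all 15522 genes. Of 146 such genes tested, 3 rose and 2 fell in cKO, that is 3.42%, against 1.30% of all genes. An unadjusted p under 0.05 was reached by 35 of the 146, that is 24.0%, against 17.2% of all genes. The median log2 fold change over the 146 was 0.06, against 0.00 over all genes. These lists were chosen with earlier results of these data known, so nothing is read from their shares against those of all genes. The 1.30% is the edgeR share and is no background for list calls by limma-voom and DESeq2, given below. Over all 15522 genes, edgeR gave 61 higher and 141 lower in cKO. From limma-voom came 106 and 227, and from DESeq2 525 and 646, so more calls per list are to be looked for with these tools.

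Among large-pore channels, 1 of 11 tested fell and none rose. Panx3 went from 26.7 CPM in controls to 8.79 CPM in cKO, a log2 fold change of -1.60 ± 0.15 (SE; edgeR adjusted p = 0.0264). It did not pass without control replicate 1 (adjusted p = 0.111) or without control replicate 2 (adjusted p = 0.0797). The next by p, Lrrc8a, the essential subunit of the volume-regulated anion channel, had 72.5 CPM in controls and 60.9 CPM in cKO (adjusted p = 0.21). The chondrocyte marker sum was lower in the same libraries, and its part in the Panx3 value was not tested.

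Of 18 other connexins, 7 were tested, 4 were at 0 in all libraries, and none passed (3 had an unadjusted p under 0.05, and DESeq2 gave 1 and limma-voom 1). Gjc3, known from Schwann cells, was the most abundant of these and stood at 10.9 and 11.7 CPM in controls against 5.80 and 4.00 CPM in cKO, with an edgeR adjusted p of 0.0587. The epidermal connexin gene Gjb5 stood at 0.581 and 0.477 CPM in controls against 1.04 and 1.54 CPM in cKO. The list's median was 0.94, with 6 of 7 above 0, and apart from Gjc3 no tested gene of it had a group mean above 1.29 CPM.

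Of 25 other TRP channels, 15 were tested and none passed (3 had an unadjusted p under 0.05, and DESeq2 gave 1 and limma-voom 0), and the median was -0.08. Trpm6, a magnesium channel, had 12.3 CPM in controls and 7.71 CPM in cKO (edgeR adjusted p = 0.12). Trpm5 had 9 and 31 counts in controls and none in cKO (edgeR adjusted p = 0.14). With 3 counts per library as the floor, its control mean was 7.26 times that floor, a ratio that leaves out the spread between controls. The magnesium and zinc channel kinase Trpm7, the most abundant of the list, stood at 234 CPM in controls and 221 CPM in cKO. Of 13 other K2P channels, 7 were tested and none passed (1 had an unadjusted p under 0.05, and DESeq2 and limma-voom gave 0). Kcnk1 (3.44 and 1.77 CPM in controls and cKO) and Kcnk10 (2.35 and 1.53 CPM) had the smallest p, with edgeR adjusted p-values of 0.22 and 0.42.

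Of 21 polycystin-1 relatives and cilium genes tested, none passed (1 had an unadjusted p under 0.05, and DESeq2 and limma-voom gave 0), and the median was -0.01. Kifap3 and Ift172, which serve transport along the cilium, came nearest, with log2 fold changes of 0.19 and -0.16 (edgeR adjusted p = 0.18 and 0.37). Of 12 other force-gated channels and Piezo partners, none passed (2 had an unadjusted p under 0.05, and DESeq2 gave 2 and limma-voom 0). Mdfi, a relative of the Piezo-binding protein MDFIC, had 35.1 CPM in controls and 23.7 CPM in cKO (edgeR adjusted p = 0.0794). Tmem63a, a channel opened by membrane tension, had 183 and 156 CPM (adjusted p = 0.13).

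Of 26 calcium entry, release and calcineurin-NFAT genes tested, none passed by edgeR. DESeq2 called 5 and limma-voom 1, and 7 had an unadjusted edgeR p under 0.05. Nfatc4, a calcium-responsive transcription factor, stood at 37.2 CPM in controls and 52.8 CPM in cKO, a log2 fold change of 0.50 ± 0.08 (SE; edgeR adjusted p = 0.0529, and 0.0421 with library sizes alone). Itpr1, a calcium release channel of the endoplasmic reticulum, stood at 158 and 186 CPM (adjusted p = 0.10).

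In the extracellular ATP and purinergic list 1 of 16 tested fell. Nt5e, which encodes the ectoenzyme that makes adenosine from AMP, went from 114 ± 18.8 to 69.5 ± 0.149 CPM (SD, n = 2), a log2 fold change of -0.71 ± 0.11 (SE; edgeR adjusted p = 0.0472). With library sizes alone the adjusted p was 0.0532, and over the fits that leave out a library it ran from 0.0344 to 0.152. Among 12 connexin partners 1 rose, Ccn3, a matricellular protein that binds Cx43, from 138 to 181 CPM (log2 fold change 0.39 ± 0.06; edgeR adjusted p = 0.0434). Over the fits that leave out a library its adjusted p ran from 0.036 to 0.189. Cav1, a membrane scaffold protein, stood at 65.3 and 89.7 CPM in controls and cKO (adjusted p = 0.14).

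Of 20 targets of YAP and TAZ, coactivators that respond to cell shape and tension, 2 rose and 1 fell. An unadjusted edgeR p under 0.05 was reached by 11 of the 20, against 17.2% of all genes, and DESeq2 gave 7 and limma-voom 4. Tgfb2, a growth factor, went from 109 to 167 CPM (log2 fold change 0.62 ± 0.07; edgeR adjusted p = 0.0289) and Axl, a receptor tyrosine kinase, from 167 to 238 CPM (0.51 ± 0.06; adjusted p = 0.0289). The gene that fell was Nt5e, which this list shares with the purinergic list. The widely used readouts Ccn1 and Ccn2 did not pass and lay on opposite sides, Ccn1 with a log2 fold change of 0.32 ± 0.07 (adjusted p = 0.0925) and Ccn2 of -0.49 ± 0.14 (adjusted p = 0.15); they were named after their values were seen. With either control library left out, no gene of this list passed. The fibroblast sum was higher in the same cKO libraries, though Tgfb2 and Axl were higher in replicate 1 and the sum in replicate 2. The part of the fibroblast markers in these values was not tested.

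**Figure D4:**
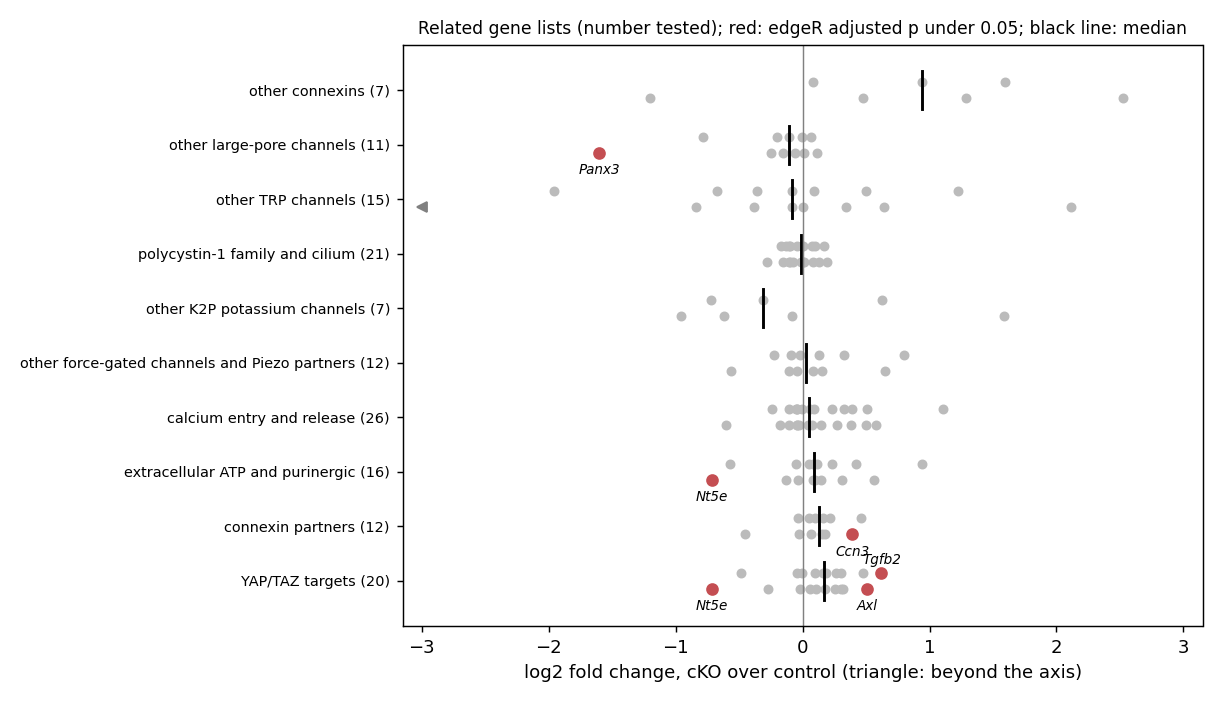
Log2 fold change of cKO over control (horizontal axis) for each tested gene of the 10 lists, with list medians as black lines and genes past an edgeR adjusted p of 0.05 in red. The red points are Panx3 and Nt5e on the lower side and Ccn3, Axl and Tgfb2 on the higher side.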

How the data were processed

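RNA-seq counts were analysed for 2 control and 2 cKO libraries. The authors deposited raw read counts per gene symbol, unscaled, in 1 table. Per the submitters' processing notes, the tools were HISAT2 2.2.1, StringTie 2.1.7, Trim Galore 0.6.7 and FastQC 0.11.9, on mm10, and the sources used here do not give the counting tool, its strand setting or the annotation. Genes were kept by filterByExpr (minimum count 10) in edgeR 4.0.16 (R 4.3.3), TMM-scaled, and compared by the quasi-likelihood test (glmQLFit, glmQLFTest) with Benjamini-Hochberg adjustment over 15522 genes at 0.05. The fit was tested on simulated data. A standard error is the size of the log2 fold change divided by the root of its F statistic. Positions and exon lengths come from GENCODE M21 (mm10), promoters from RefSeq. Alternatives were library sizes alone, RLE size factors, DESeq2 1.42.0, limma-voom (limma 3.58.1), other filters, a replicate block, and leaving out each library. Every member was named. From each related list, genes past the threshold were named, up to 4 by p, or else the 2 with the smallest p; others named were the most abundant of a list, Cav1, Ccn1 and Ccn2, after their values were seen. Members and lists were chosen with earlier results of these data known. Intervals are exact binomial and cover counting error only.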

Additional observations from a re-analysis of the deposited data

How the results depend on the processing

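Over 12 alternatives Trpv4 stayed between -1.52 and -0.81 and Piezo2 between 0.71 and 1.02 on the log2 scale, while Trpc1, Gjc1, Piezo1 and Panx1 crossed 0 in 1 fit each, as given above. All other members kept their sign. Over the series 61 genes were called higher and 141 lower. DESeq2 called 525 and 646, limma-voom 106 and 227, the stricter filter 123 and 234, and library sizes alone 116 and 123. Members called numbered 2, Piezo2 and Trpv4, with DESeq2, limma-voom and the stricter filter. Here and below nothing is read from calls of members, since the same contrast chose them. The other connexins gave 1 call with each of these 3. The calcium list gave 5 with DESeq2 and 1 with limma-voom, the stricter filter or library sizes alone. DESeq2 also gave 1 TRP channel, 2 force-gated channels and Piezo partners, 2 connexin partners and 7 YAP/TAZ targets. The purinergic list gave 0 with library sizes alone and the connexin partners 0 with no filter. Which feature of a tool or filter moves these counts was not tested.

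Leaving out 1 library at a time gave 1 to 312 genes higher and 4 to 470 lower, the lowest without control replicate 1 and the highest without cKO replicate 1. Ranges of calls over these fits were 0 to 2 for the members, 0 to 1 for the other connexins, large-pore channels, force-gated channels, purinergic genes and connexin partners, 0 to 2 for calcium genes and 0 to 4 for YAP/TAZ targets, each 0 without either control library. Trpm5 had no fit under the stricter filter or without control replicate 2. The lone library of an arm is then assumed to vary like the others.

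With a replicate block, 3 genes were higher and 20 lower, and members, purinergic genes, connexin partners and YAP/TAZ targets gave 0 calls each. The numbers are only names here, with deviations of same-numbered libraries correlated at -0.12. Crossing the pairing, an alternative chosen after seeing the data, gave 223 higher and 341 lower, with 2 members, 1 connexin, 1 force-gated channel or partner, 2 calcium genes and 5 YAP/TAZ targets called.

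The members with the fewest counts, Panx1, Gjc1 and Trpc1, carry counting errors of 5.14%, 4.36% and 4.20% in their lowest library, so depth limits small differences in these genes most.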
